A study of Homo sapiens with 18 samples.

Results

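The drug efflux ABC transporters are membrane pumps that use ATP to move drugs, conjugates and signalling molecules out of cells, and 9 genes of that kind were followed here in a breast cancer line and its lapatinib-resistant derivative. The members were every probe annotated to ABCB1, ABCC1, ABCC2, ABCC3, ABCC4, ABCC5, ABCC10, ABCC11 or ABCG2, whatever its signal. This gave 14 of the 48803 probes in the table and 8 of the 9 genes. No probe was annotated to ABCC1, which was not analysed here. ABCC5 and ABCC11 had 3 probes each, ABCB1 and ABCC4 had 2 each, and the other 4 genes had 1 each.

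ABC pumps bind a substrate inside the membrane or the cytoplasm and release it outside as a pair of ATP-binding domains closes and opens. ABCB1 (P-glycoprotein) and ABCG2 (breast cancer resistance protein) expel hydrophobic drugs and are known to bind lapatinib, as substrate and as inhibitor. The ABCC proteins carry mainly organic anions: ABCC2 and ABCC3 export glutathione and glucuronide conjugates, while ABCC4, ABCC5 and ABCC11 also export cyclic nucleotides and nucleotide analogues.

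The arrays, 18 in 6 groups of 3, came from SKBR3, a widely used breast cancer cell line that carries an ERBB2 amplification. The groups were resistant SKBR3 cells under basal conditions, with 0.1 µM and with 1 µM lapatinib, and parental SKBR3 cells under the same 3 conditions. Lapatinib is a small molecule that blocks the tyrosine kinases of EGFR and ERBB2. How the resistant line was selected, whether it is 1 clone, whether it was kept on drug before the basal samples were taken, and how long the treatments lasted are not given in the sources used here. Nothing in the labels says that replicates were separate cultures, so a p-value reflects the scatter among these arrays, part or all of which could be technical.

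The sequence just before the transcription start is shown for 4 pumps whose probes changed with lapatinib or differed between the lines. Each window holds the 250 bases upstream of a RefSeq start (GRCh38.p14), 5′ to 3′ on the gene's strand. ABCC4, which fell with lapatinib, lies at chr13:95301452-95301701 on the minus strand. ABCC5, which rose, lies at chr3:184017885-184018134 on the minus strand. ABCC11, which rose on 1 probe, lies at chr16:48247540-48247789 on the minus strand (1 of 3 listed starts), and ABCC2, higher in basal resistant cells, lies at chr10:99782390-99782639 on the plus strand. Capitals mark matches to any of 7 motifs searched on both strands.
ABCC4: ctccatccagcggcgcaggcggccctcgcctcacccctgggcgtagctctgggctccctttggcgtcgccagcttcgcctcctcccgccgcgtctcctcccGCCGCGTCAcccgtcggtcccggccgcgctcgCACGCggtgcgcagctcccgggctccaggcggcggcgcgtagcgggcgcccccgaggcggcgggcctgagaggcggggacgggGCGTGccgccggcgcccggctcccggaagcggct
ABCC5: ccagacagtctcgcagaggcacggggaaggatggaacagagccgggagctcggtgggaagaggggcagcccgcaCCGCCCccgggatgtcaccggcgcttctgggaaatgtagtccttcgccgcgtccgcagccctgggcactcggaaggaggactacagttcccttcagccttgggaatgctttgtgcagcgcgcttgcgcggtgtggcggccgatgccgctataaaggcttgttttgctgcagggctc
ABCC11: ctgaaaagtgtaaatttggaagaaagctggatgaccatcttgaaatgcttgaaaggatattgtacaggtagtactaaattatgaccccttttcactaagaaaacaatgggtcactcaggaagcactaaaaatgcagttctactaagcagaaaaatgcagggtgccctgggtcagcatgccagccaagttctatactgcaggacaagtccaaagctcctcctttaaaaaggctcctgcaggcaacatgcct
ABCC2: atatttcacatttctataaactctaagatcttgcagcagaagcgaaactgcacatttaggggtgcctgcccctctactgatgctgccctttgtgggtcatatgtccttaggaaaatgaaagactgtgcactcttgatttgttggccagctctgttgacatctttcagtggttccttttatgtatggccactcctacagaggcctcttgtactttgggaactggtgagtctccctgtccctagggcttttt
The motifs were the GC box GGGCGG, the CCAAT box CCAAT, the antioxidant response element core TGACNNNGC, the dioxin response element core GCGTG, a FOXO site GTAAACA, the E box CACGTG and the nuclear receptor element AGGTCA. The ABCC4 window held 1 antioxidant and 2 dioxin element matches, motifs found in 10.91% and 32.22% of the 35116 listed windows. The ABCC5 window held 1 GC box, found in 42.64% of them. The ABCC11 and ABCC2 windows shown held no match, while the window of another listed ABCC11 start held 2 GC boxes and had 68.4% G and C. No match overlapped another. The ABCC4 window had 80.4% G and C, the ABCC5 window 64.8%, the ABCC2 window 45.6% and the ABCC11 window 42.8%, against a median of 58.0% over all windows. A match is a description of letters and not of binding. ABCC3 and ABCC1 had no listed window.

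The mean deposited signal per array ranged from 417 to 675 and differed by group. It averaged 481 ± 40.5, 425 ± 8.16 and 438 ± 8.75 in resistant cells at basal, 0.1 µM and 1 µM, and 646 ± 25.9, 533 ± 21.2 and 505 ± 25.0 in parental cells (SD, n = 3 each). The part of this brightness in the results was not tested, and calls that ended when arrays were scaled to a common median are named below. Markers of a luminal ERBB2-amplified line were above background on every array for 8 of 10 genes, ERBB2 at up to 482 times the background threshold defined below. GATA3 was above on 4 arrays, at up to 1.05 times the threshold, and TFAP2B on at most 13, at up to 1.56 times. Of other cell types, none of 6 fibroblast and none of 2 measured basal epithelial markers were above background on all arrays. The most were COL1A1 on 11 arrays for fibroblasts and KRT5 on 3 for basal epithelium. Of 5 measured leukocyte markers 2 were above on all arrays, CD68 at up to 15.7 and LYZ at up to 1.89 times the threshold. CD14 was above on 15 arrays, CD3E on 2 and PTPRC on 0. For endothelium 3 of 4 were above on all arrays, at up to 2.28 times the threshold. The part of these markers in the results was not tested.

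The pumps best known for lapatinib were at or below the level the arrays could measure. A probe counted as above background on an array when its signal passed a threshold set from the lower side of that array's own signal distribution, and probes above it on at least 3 of 18 arrays were tested. ABCG2 and the ABCB1 probe ILMN_2094875 were above the threshold on 0 of 18 arrays in either line at any dose. The other ABCB1 probe, ILMN_1812070, was above on 3 of 18 arrays, 1 each of the resistant basal, parental basal and parental 0.1 µM groups. Its signal was 0.689 to 1.06 times the threshold. ABCG2 lay between 0.632 and 0.892 times the threshold. These signals bound the transcripts from above only, and neither gene can be said to be absent.

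**Figure D1:**
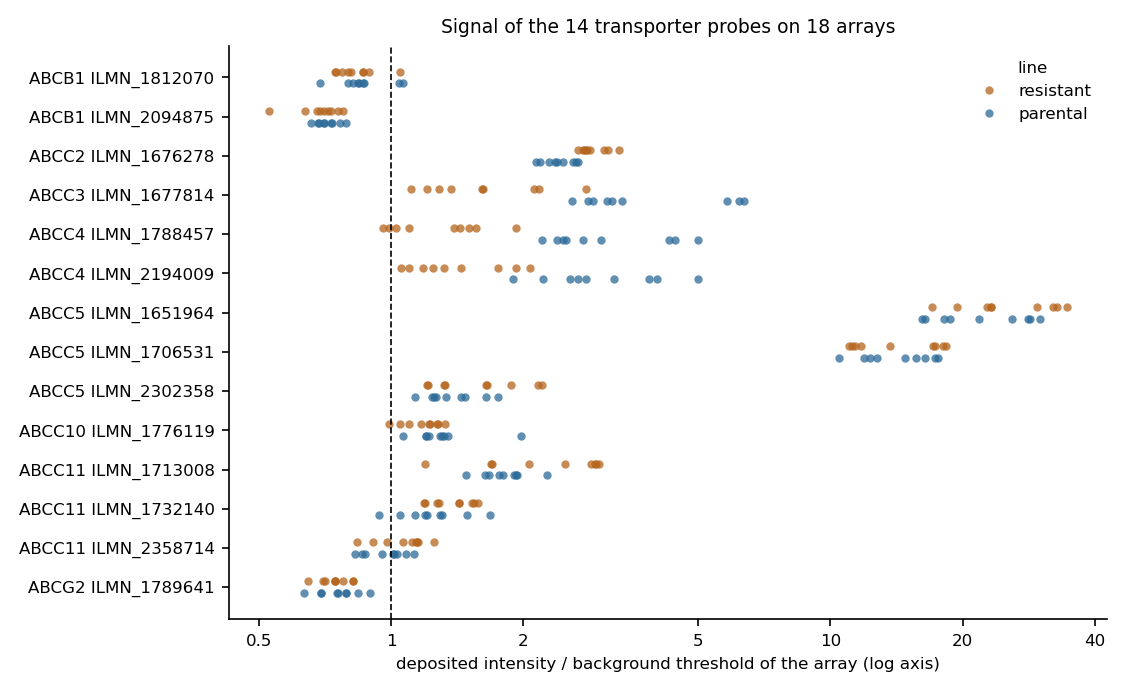
Deposited intensity of each of the 14 transporter probes divided by the background threshold of its array, on a log axis, with 1 point per array (9 resistant, 9 parental) and the dashed line at the threshold. ABCG2 and 1 ABCB1 probe lie left of the line on all 18 arrays, while the 2 brighter ABCC5 probes lie 10.5 to 34.6 times above it.

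The ABCC family carried the measurable signal. ABCC2, ABCC3, the 3 ABCC5 probes, ABCC4 probe ILMN_2194009 and ABCC11 probe ILMN_1713008 were above background on all 18 arrays. ABCC10 and ABCC11 probe ILMN_1732140 were above on 17 arrays, ABCC4 probe ILMN_1788457 on 16 and ABCC11 probe ILMN_2358714 on 11. Of the 14 probes 12 were therefore tested, and the 2 left out were those of ABCG2 and ABCB1 named above. Levels below are normalised intensities on a linear scale, which include an offset of 50 added before normalization. That offset makes changes of dim probes look smaller, and values of different probes are not set against each other.

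The measured pumps moved in opposite directions. A level is an average over a culture, so fewer cells expressing a gene and less RNA per cell cannot be told apart. With lapatinib ABCC3 and ABCC4 fell and ABCC5 rose in both lines, and 1 of 3 ABCC11 probes rose in the resistant line. In the resistant line against the parental line ABCC3 and ABCC4 were lower under all 3 conditions, while ABCC2 and 1 ABCC5 probe were higher under basal conditions and at 0.1 µM, and 1 ABCC11 probe was higher at 1 µM. Of these, the ABCC3, ABCC4 and ABCC11 calls held under every alternative processing run. Each ABCC2 and ABCC5 call between the lines was lost under at least 1, median scaling among them. ABCC10 and ABCB1 did not pass the test in any of the 11 comparisons. A probe was called higher or lower when its limma p, two-sided and adjusted by Benjamini-Hochberg over all 22706 probes tested, was under 0.05.

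With 1 µM lapatinib against basal in the resistant line, 7 of 12 member probes were called, 4 higher and 3 lower. Of all probes tested 16.4% were called, 7.98% higher and 8.45% lower, and the median log2 change was 0.064 over members and 0.0043 over all probes. In the parental line 6 of 12 were called, 3 higher and 3 lower, beside 20.8% of all probes, 10.2% higher and 10.5% lower. The median there was -0.018 over members and 0.0097 over all probes. At 0.1 µM against basal 5 of 12 member probes were called in the resistant line (3 higher, 2 lower), beside 4.41% of all probes, 2.47% higher and 1.94% lower. In the parental line 4 of 12 were called (2 higher, 2 lower), beside 7.95% of all probes, 3.93% higher and 4.02% lower. Within a line the comparisons with basal share the basal arrays, and probes of 1 gene share their target.

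Between the doses little passed the test. For 1 µM against 0.1 µM, 1 of 12 member probes was called in the resistant line, lower, beside 3.37% of all probes (1.29% higher, 2.09% lower). In the parental line limma called 0 of 12, beside 3.37% of all probes (1.88% higher, 1.48% lower). At an unadjusted limma p under 0.05 the count was 4 of 12 in each line. The share of all probes at that cut was not counted, and 3.37% is not its counterpart. The probe called in the resistant line was that of ABCC3.

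Between the lines under basal conditions 5 of 12 member probes were called, 2 higher and 3 lower in resistant cells, beside 10.7% of all probes (5.13% higher, 5.62% lower). At 0.1 µM 5 of 12 were called, again 2 higher and 3 lower, beside 14.4% (7.13% higher, 7.22% lower). At 1 µM 4 of 12 were called, 1 higher and 3 lower, beside 15% (7.23% higher, 7.73% lower). The 3 lower calls under each condition were ABCC3 and both ABCC4 probes. For the responses of both lines set against each other (resistant minus parental) limma called 0 of 12 at 0.1 µM and 0 of 12 at 1 µM, beside 0.0044% and 0.273% of all probes. At an unadjusted p under 0.05 these counts were 0 and 1, and the share of all probes at that cut was not counted.

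**Figure D2:**
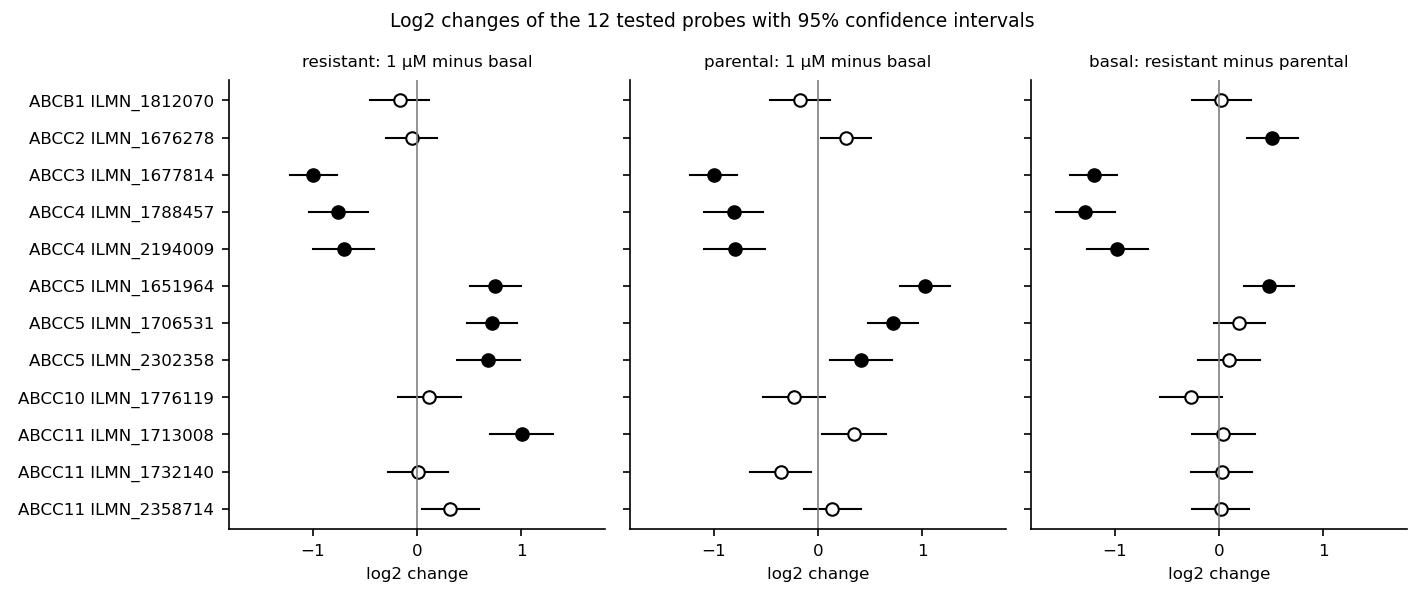
Log2 change of the 12 tested probes with 95% confidence intervals from limma, for resistant 1 µM minus basal, parental 1 µM minus basal, and resistant minus parental under basal conditions, with filled points for an adjusted p under 0.05. ABCC3 and ABCC4 lie left of 0 in all 3 panels, and the 3 ABCC5 probes lie right of 0 in both treatment panels.

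ABCC3, which exports glucuronide and bile salt conjugates across the basolateral membrane of epithelia, was lowered by lapatinib in both lines and was lower in the resistant line throughout. In resistant cells its normalised intensity was 235, 202 and 211 under basal conditions, 156, 135 and 147 at 0.1 µM, and 109, 116 and 99.8 at 1 µM. In parental cells it was 477, 522 and 489 under basal conditions, 291, 335 and 309 at 0.1 µM, and 261, 237 and 245 at 1 µM. No group overlapped its neighbour in level, and the order from high to low was parental basal, parental 0.1 µM, parental 1 µM, resistant basal, resistant 0.1 µM and resistant 1 µM. The highest resistant array, under basal conditions without drug, thus lay below the lowest parental array at 1 µM.

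The log2 change of ABCC3 with 1 µM lapatinib was -0.99 ± 0.11 (SE) in resistant cells (1.99-fold lower, adjusted p = 1.29e-07). In parental cells it fell by 1.00 ± 0.11 (2.00-fold lower, adjusted p = 8.18e-08). The difference of these responses was 0.01 with a 95% interval of -0.31 to 0.33. The signal of the resistant arrays came as low as 1.11 times the threshold, a level at which background makes a fall look smaller. At 0.1 µM ABCC3 fell by 0.57 in resistant cells (adjusted p = 0.00188) and by 0.67 in parental cells (adjusted p = 0.000148). The resistant value at 0.1 µM was no longer called when only the groups compared were fitted (adjusted p = 0.0516). The step between doses was -0.43 in resistant cells (adjusted p = 0.0245), a call lost under 6 alternatives. It was lost with median scaling and with only the groups compared. It was also lost without resistant 0.1 µM replicate 1 (adjusted p = 0.0848) or 3 (0.0508) and without resistant 1 µM replicate 1 (0.0657) or 3 (0.126). The highest adjusted p among the alternatives was 0.164. In parental cells the step was -0.33 (adjusted p = 0.0988).

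Resistant against parental, ABCC3 averaged 216 ± 17.3 in resistant and 496 ± 23.3 in parental basal cells (SD, n = 3 each), 2.30-fold lower (log2 -1.20 ± 0.11 SE, adjusted p = 6.22e-09). At 0.1 µM it was 2.14-fold lower (adjusted p = 2.93e-08) and at 1 µM 2.28-fold lower (adjusted p = 5.31e-09). In each comparison all 3 resistant arrays lay below all 3 parental arrays. These 3 calls held under every alternative run.

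**Figure D3:**
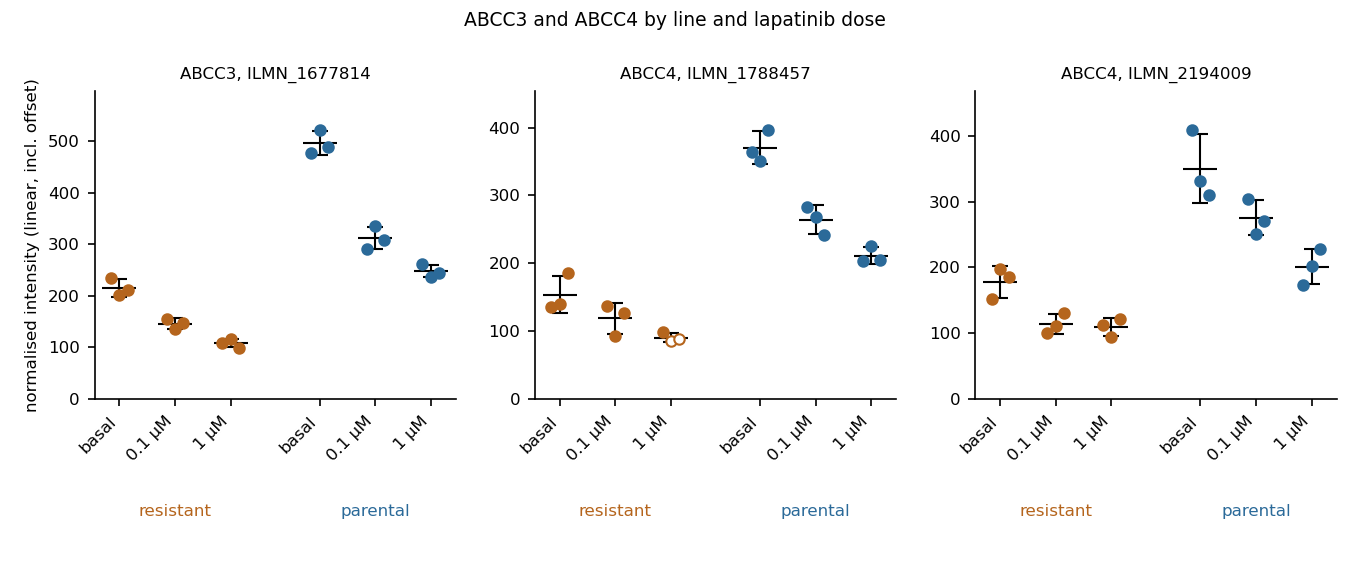
Normalised intensity (linear scale, offset of 50 included) of ABCC3 and the 2 ABCC4 probes on 18 arrays, grouped by line and lapatinib dose, with the mean and SD (n = 3) as bars and open circles for arrays not above background. Every resistant array lies below the parental arrays of the same dose, and the ABCC3 groups step down with dose in both lines.

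ABCC4, an exporter of cyclic nucleotides, prostaglandins and nucleotide analogues, behaved alike on its 2 probes, which correlated over the 18 arrays at r = 0.94, a value that reflects differences between groups. On probe ILMN_1788457 resistant cells read 135, 140 and 185 under basal conditions, 137, 93.4 and 126 at 0.1 µM, and 98.4, 84.9 and 88.4 at 1 µM. Parental cells read 363, 350 and 397 under basal conditions, 283, 268 and 242 at 0.1 µM, and 204, 226 and 205 at 1 µM. The resistant groups overlapped between neighbouring doses and the parental groups did not. Only 1 of the 3 resistant arrays at 1 µM was above background, so the fitted values of that group are close to the floor of the measurement.

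On the second ABCC4 probe, ILMN_2194009, resistant cells read 152, 198 and 185 under basal conditions, 101, 112 and 130 at 0.1 µM, and 113, 93.9 and 121 at 1 µM. Parental cells read 409, 331 and 310 under basal conditions, 304, 251 and 271 at 0.1 µM, and 174, 203 and 227 at 1 µM. All resistant arrays lay below the parental arrays of the same dose on both probes. Resistant basal and parental 1 µM arrays overlapped on this probe and did not on the other.

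With 1 µM lapatinib ABCC4 fell in resistant cells by 0.75 ± 0.14 (SE) on the log2 scale on ILMN_1788457 (1.68-fold lower, adjusted p = 0.000218) and by 0.70 ± 0.14 on ILMN_2194009 (adjusted p = 0.00065). In parental cells it fell by 0.81 ± 0.14 (1.75-fold lower, adjusted p = 6.43e-05) and by 0.80 ± 0.14 (adjusted p = 0.000111). The differences of these responses were 0.06 (95% interval -0.34 to 0.45) and 0.09 (-0.32 to 0.50). The resistant 1 µM signals came as low as 0.956 times the threshold on ILMN_1788457 and 1.05 times on ILMN_2194009. At such levels background makes a fall, or a difference between the lines, look smaller. At 0.1 µM the probes did not pass the test together. In resistant cells the change was -0.38 on ILMN_1788457 (adjusted p = 0.13) and -0.64 on ILMN_2194009 (adjusted p = 0.00674, or 0.0505 with only the groups compared). In parental cells it was -0.49 on ILMN_1788457 (adjusted p = 0.0252) and -0.34 on ILMN_2194009 (adjusted p = 0.158). The parental call at 0.1 µM was lost without parental basal replicate 1 (adjusted p = 0.0598) or 3 (0.108) and without parental 0.1 µM replicate 2 (0.0627) or 3 (0.108). With arrays scaled to a common median it was -0.77 (adjusted p = 0.000158).

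Between the lines under basal conditions ABCC4 averaged 154 ± 27.4 in resistant and 370 ± 24.0 in parental cells on ILMN_1788457 (SD, n = 3 each), 2.43-fold lower (log2 -1.28, adjusted p = 1.3e-07). On ILMN_2194009 it averaged 178 ± 23.8 in resistant and 350 ± 52.4 in parental cells, 1.96-fold lower (log2 -0.97, adjusted p = 1.95e-05). At 0.1 µM the folds were 2.25 and 2.42 lower (adjusted p = 5.41e-07 and 2.27e-07), and at 1 µM 2.34 and 1.84 lower (adjusted p = 2.18e-07 and 5.59e-05). These 6 calls held under every alternative run.

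ABCC5, which exports cyclic nucleotides, folates and antifolates and is found in most tissues, was raised by lapatinib in both lines. On its brightest probe, ILMN_1651964, resistant cells read 1951, 1891 and 1734 under basal conditions, 2493, 2481 and 3336 at 0.1 µM, and 2942, 3194 and 3252 at 1 µM. Parental cells read 1441, 1317 and 1255 under basal conditions, 2500, 2196 and 1823 at 0.1 µM, and 2833, 2711 and 2611 at 1 µM. Every treated array of a line lay above its basal arrays, and resistant 0.1 µM replicate 3 stood above the other 2 of its group. That array was also the one that correlated least with its own group over all probes tested (mean r = 0.986).

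The other ABCC5 probes gave the same direction. On ILMN_1706531 resistant cells read 990, 1100 and 1114 under basal conditions, 1472, 1229 and 1665 at 0.1 µM, and 1706, 1833 and 1730 at 1 µM. Parental cells read 845, 961 and 1002 under basal conditions, 1675, 1490 and 1201 at 0.1 µM, and 1623, 1486 and 1502 at 1 µM. The treated arrays again lay above the basal arrays of their line. The third probe, ILMN_2302358, was dimmer, with 116, 122 and 111 in basal, 160, 114 and 170 in 0.1 µM and 153, 207 and 206 in 1 µM resistant cells. Its parental values were 110, 108 and 108 under basal conditions, 121, 136 and 104 at 0.1 µM, and 150, 159 and 128 at 1 µM. Only its 1 µM arrays stood clear of the basal arrays in both lines. ILMN_1651964 and ILMN_2302358 are annotated to 1 transcript and ILMN_1706531 to another. A probe of the antisense gene ABCC5-AS1 did not pass the filter on dim probes.

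With 1 µM lapatinib the log2 change of ABCC5 in resistant cells was 0.75 ± 0.12 on ILMN_1651964 (SE, 1.68-fold higher, adjusted p = 2.79e-05), 0.72 ± 0.12 on ILMN_1706531 (adjusted p = 6.02e-05) and 0.69 ± 0.15 on ILMN_2302358 (adjusted p = 0.00113). In parental cells it was 1.02 ± 0.12 (2.03-fold higher, adjusted p = 1.76e-07), 0.72 ± 0.12 (adjusted p = 4.38e-05) and 0.41 ± 0.15 (adjusted p = 0.0424) on the same probes. All 3 probes rose in both lines at this dose. The parental call on ILMN_2302358 was lost under 8 alternatives, including without any of the 3 parental basal arrays (adjusted p = 0.0821, 0.102 and 0.101) and without parental 1 µM replicate 1 (0.113) or 2 (0.169). It was also lost with median scaling and with the replicate number as a block (adjusted p = 0.054 with the block). With arrays scaled to a common median, parental ILMN_1706531 rose by 0.41 (adjusted p = 0.0293). The differences of the responses at 1 µM were -0.27 (95% interval -0.61 to 0.07), 0.00 (-0.34 to 0.34) and 0.27 (-0.15 to 0.69).

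At 0.1 µM ABCC5 rose in resistant cells by 0.56 on ILMN_1651964 (adjusted p = 0.00391) and 0.44 on ILMN_1706531 (adjusted p = 0.0306), with 0.33 on ILMN_2302358 (adjusted p = 0.238). In parental cells it rose by 0.69 (adjusted p = 0.000242) and 0.63 (adjusted p = 0.000809), with 0.14 on ILMN_2302358 (adjusted p = 0.674). These 4 calls ended when arrays were scaled to a common median, where the changes were 0.40 and 0.28 in resistant cells (adjusted p = 0.119 and 0.302) and 0.36 and 0.31 in parental cells (adjusted p = 0.076 and 0.127). The resistant call on ILMN_1706531 was also lost without any of the resistant basal arrays (adjusted p = 0.131, 0.0607 and 0.0609) and without resistant 0.1 µM replicate 1 (0.0605) or 3 (0.121). Fitted on the groups compared alone, neither resistant value was called (adjusted p = 0.0758 and 0.177).

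**Figure D4:**
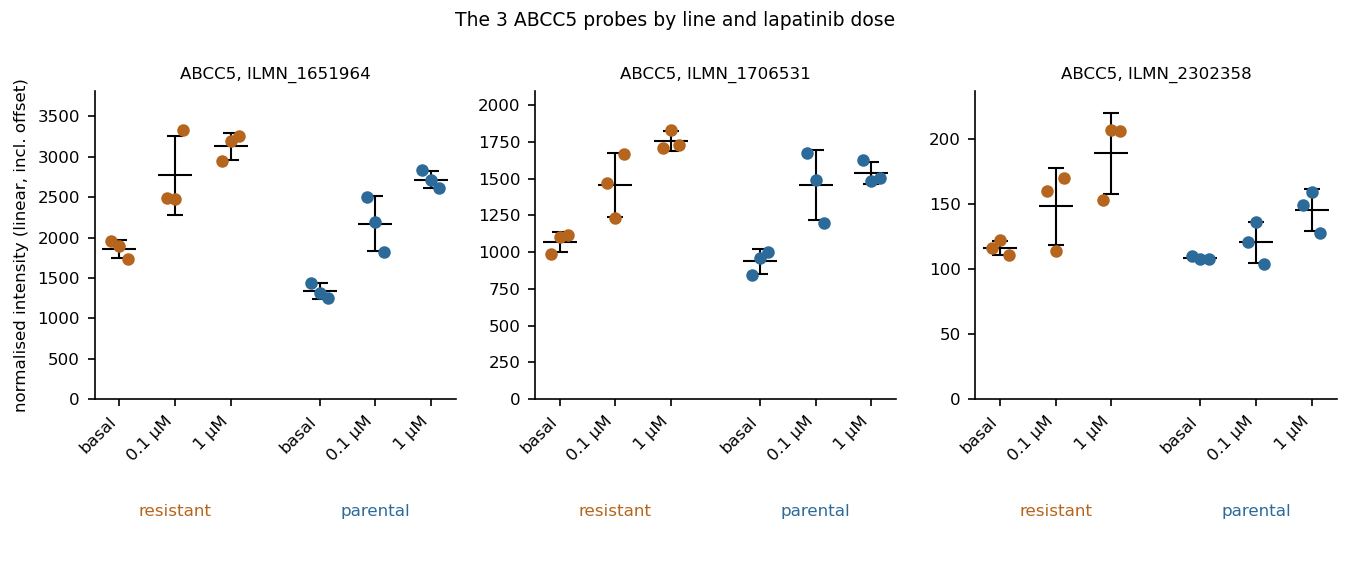
Normalised intensity (linear scale, offset of 50 included) of the 3 ABCC5 probes on 18 arrays, grouped by line and lapatinib dose, with the mean and SD (n = 3) as bars. All 1 µM arrays lie above the basal arrays of the same line on each probe. The 0.1 µM groups are the most spread on ILMN_1651964 and ILMN_1706531, while on ILMN_2302358 the 0.1 and 1 µM groups have like SDs, 29.9 and 30.9 in resistant cells.

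Between the lines ABCC5 was called on 1 of 3 probes. Under basal conditions ILMN_1651964 averaged 1859 ± 112 in resistant and 1338 ± 94.6 in parental cells (SD, n = 3 each), 1.39-fold higher (log2 0.48, adjusted p = 0.00718). ILMN_1706531 gave 0.19 (95% interval -0.05 to 0.44) and ILMN_2302358 gave 0.10 (-0.20 to 0.40), neither called. With arrays scaled to a common median the value on ILMN_1651964 was 0.12 (adjusted p = 0.612). At 0.1 µM it was 0.35 (adjusted p = 0.0447), a call lost under 15 alternatives, median scaling among them. Over the alternatives its lowest value was 0.16 and its highest adjusted p 0.572. It was 0.21 without resistant 0.1 µM replicate 3 (adjusted p = 0.235) and 0.23 without parental 0.1 µM replicate 3 (adjusted p = 0.271). At 1 µM it was 0.20 (95% interval -0.04 to 0.44, adjusted p = 0.288).

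ABCC11, an exporter of cyclic nucleotides and steroid sulphates at the apical membrane, known from apocrine and breast epithelium, rose in the resistant line on 1 of its 3 probes. On ILMN_1713008 resistant cells read 105, 160 and 162 under basal conditions, 295, 211 and 227 at 0.1 µM, and 271, 281 and 287 at 1 µM. Parental cells read 128, 142 and 137 under basal conditions, 161, 173 and 218 at 0.1 µM, and 179, 176 and 163 at 1 µM. Treated arrays lay above basal arrays in both lines, and the resistant 1 µM arrays lay above all parental arrays. ILMN_1732140 read 107 to 148 over the resistant arrays and 83.1 to 140 over the parental arrays, and ILMN_2358714 read 73.5 to 114 and 72.3 to 98.7. On ILMN_2358714 resistant cells averaged 85.1 ± 10.5 under basal conditions, 96.8 ± 13.8 at 0.1 µM and 106 ± 7.27 at 1 µM (SD, n = 3 each). Its 3 resistant arrays at 1 µM lay above the 3 basal ones, a smaller step that did not pass the test, and those at 0.1 µM overlapped both.

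With lapatinib in resistant cells ILMN_1713008 rose by 0.79 at 0.1 µM (adjusted p = 0.00145) and by 1.00 ± 0.15 (SE) at 1 µM (2.00-fold higher, adjusted p = 1.47e-05). In parental cells the changes were 0.43 (adjusted p = 0.076) and 0.35 (adjusted p = 0.106), which did not pass the test. The difference of the responses at 1 µM was 0.66 with a 95% interval of 0.23 to 1.09, and limma's adjusted p of 0.202 did not pass either. Fitted on the groups compared alone, the parental changes were called at 0.1 µM (adjusted p = 0.0321) and at 1 µM (adjusted p = 0.0242). At 1 µM the probe averaged 280 ± 7.86 in resistant and 172 ± 8.59 in parental cells (SD, n = 3 each), 1.62-fold higher (log2 0.70, adjusted p = 0.00142). At 0.1 µM the value was 0.40 (adjusted p = 0.0701) and under basal conditions 0.04 (95% interval -0.26 to 0.35).

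The 3 ABCC11 probes disagreed. Over the 18 arrays ILMN_1713008 correlated at r = 0.59 with ILMN_2358714, which is annotated to the same transcript, and at 0.11 with ILMN_1732140, which is annotated to another. The log2 change of ILMN_2358714 in resistant cells at 1 µM was 0.32 (adjusted p = 0.109). That of ILMN_1732140 was 0.01 (95% interval -0.28 to 0.30), and -0.36 in parental cells (adjusted p = 0.0764), which was called with median scaling (-0.47, adjusted p = 0.0118) and with only the groups compared (adjusted p = 0.0279). At 1 µM its value between the lines was 0.39 (adjusted p = 0.0623). The level of the gene as a whole is therefore uncertain from these probes.

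**Figure D5:**
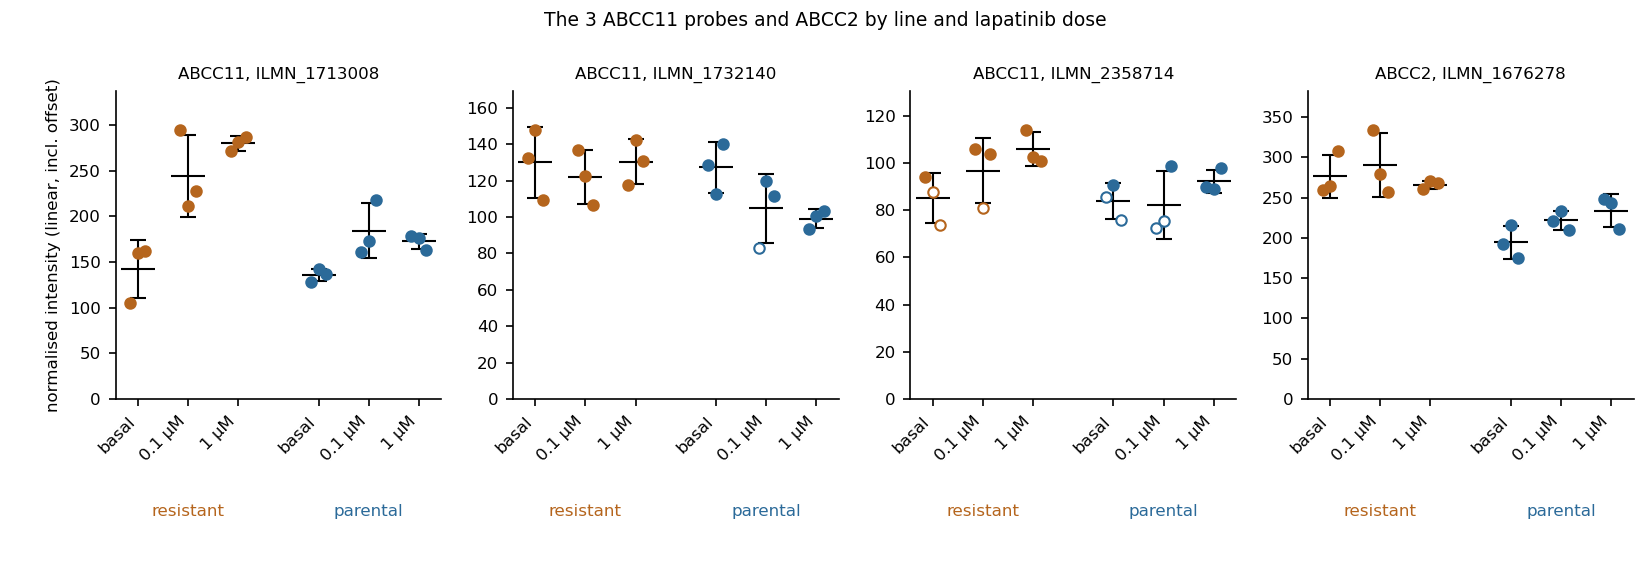
Normalised intensity (linear scale, offset of 50 included) of the 3 ABCC11 probes and ABCC2 on 18 arrays, grouped by line and lapatinib dose, with the mean and SD (n = 3) as bars and open circles for arrays not above background. All resistant arrays at 0.1 and 1 µM stand above resistant basal on ILMN_1713008. On ILMN_2358714 the 1 µM arrays do and the 0.1 µM arrays overlap basal, on ILMN_1732140 the resistant groups overlap, and the ABCC2 arrays lie higher in resistant than in parental cells.

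ABCC2, the apical exporter of bilirubin and drug conjugates, was higher in the resistant line and did not pass the test with lapatinib in either line. Resistant cells read 259, 264 and 307 under basal conditions, 334, 280 and 257 at 0.1 µM, and 261, 270 and 268 at 1 µM. Parental cells read 192, 216 and 175 under basal conditions, 221, 233 and 210 at 0.1 µM, and 248, 243 and 210 at 1 µM. The highest parental array lay below the lowest resistant array. Under basal conditions the log2 difference was 0.51 ± 0.12 (SE, 1.42-fold higher, adjusted p = 0.00462), or 0.29 with median scaling (adjusted p = 0.0908).

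At 0.1 µM ABCC2 was higher by 0.38 (adjusted p = 0.0293), a call lost under 6 alternatives, median scaling among them. It was also lost without resistant 0.1 µM replicate 1 (adjusted p = 0.165) and without parental 0.1 µM replicate 1 (0.0707) or 3 (0.104). At 1 µM the difference was 0.19 (95% interval -0.05 to 0.43, adjusted p = 0.34). With 1 µM lapatinib the log2 change of ABCC2 was -0.05 in resistant cells (95% interval -0.30 to 0.19) and 0.27 in parental cells (0.02 to 0.51, adjusted p = 0.119).

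ABCC10, known to carry taxanes and vinca alkaloids, and ABCB1 were not called in any comparison. ABCC10 read 89.3 to 120 over the resistant arrays and 94.5 to 167 over the parental arrays, and all 6 groups overlapped their neighbours in level. At 1 µM against basal its change was 0.12 in resistant cells (95% interval -0.18 to 0.42) and -0.23 in parental cells (-0.53 to 0.07). Resistant against parental under basal conditions, its log2 difference was -0.27 (-0.57 to 0.03). ABCB1 probe ILMN_1812070 read 64.7 to 94.4 over the resistant arrays and 59.4 to 96.0 over the parental arrays. Most of these arrays were below the threshold, so the intervals of this probe bound a change of background signal only.

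The genes whose levels followed ABCC3 and ABCC4 most closely were sought among 11078 probes of non-member genes above background on all arrays. Probes without a symbol or with a provisional one (LOC, open reading frame, FLJ or KIAA names) were left out. For ABCC3 these were ANXA1 (r = 0.977), an annexin, CLDN1 (0.971), a tight junction protein, and GAR1 (0.969), a small nucleolar ribonucleoprotein. For ABCC4 probe ILMN_1788457 they were TMEM243 (0.970), ERO1A (0.970) and GRPEL2 (0.968). For ILMN_2194009 they were GAR1 (0.956), SERPINA3 (0.944) and TMEM243 (0.944). The values are Pearson correlations over 18 arrays that fall into 6 groups, and they describe a shared order of groups and nothing more.

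TMEM243 is also a neighbour of ABCB1 in the genome. Among the 5 tested genes on each side of ABCB1, 4 of 10 were lower in resistant than in parental basal cells, chosen here after their values were seen. TMEM243 differed by -1.46 (adjusted p = 1.6e-10), ELAPOR2 by -0.90 (adjusted p = 5.03e-06), STEAP4 by -0.86 (adjusted p = 4.4e-05) and SRI by -0.56 (adjusted p = 0.00622). None of the 10 was higher. Over all 12547 genes, each on its brightest probe, 13.7% were called in this comparison, 812 genes higher and 907 lower. Around ABCC4, 2 of 10 neighbours were lower, GPC6 by -0.52 (adjusted p = 0.0228, lost at up to 0.17 without 1 array) and RAP2A by -0.38 (adjusted p = 0.0264, lost at up to 0.188 without 1 array). Around ABCC3 none of 10 was lower and 2 were higher, TOB1 by 0.86 (adjusted p = 4.6e-05) and SPATA20 by 0.42 (adjusted p = 0.00543, lost at 0.396 with median scaling). Around ABCC11 1 of 10 was lower, NETO2 by -1.37 with 1 of 3 resistant basal arrays above background (adjusted p = 8.06e-08). Around ABCC2 and ABCC5 1 of 10 each was higher, SCD by 0.45 (adjusted p = 0.00554, lost at 0.771 with median scaling) and KLHL24 by 0.42 (adjusted p = 0.0117, lost at up to 0.662, with median scaling). Around ABCC10 and ABCG2 none was called.

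Other genes of drug handling were counted on the brightest probe of each gene. Of 12547 genes 20.9% were called in resistant cells at 1 µM against basal, 26.1% in parental cells at 1 µM against basal, and 13.7% between the basal lines. Higher and lower genes numbered 1244 and 1384 in resistant cells, 1690 and 1589 in parental cells, and 812 and 907 between the basal lines. The median log2 change over all genes was -0.00087, 0.011 and -0.00051 in these comparisons. Of 52 calls named from the lists 33 held under every alternative run, and the other 19 are marked below with the highest adjusted p among the alternatives that ended them. Among 4 tested genes of other ABC transporters of drugs, bile salts and conjugates, ABCA3, a lipid and drug pump of intracellular vesicles, rose by 0.55 in resistant cells (adjusted p = 0.0021) and by 0.42 in parental cells (adjusted p = 0.0155, lost at up to 0.16). ABCA2 was higher by 0.40 in resistant than in parental basal cells (adjusted p = 0.043, lost at up to 0.198). None of the 4 was called lower in these comparisons, and the medians were 0.17, -0.0062 and 0.20.

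Of the 10 tested lipid transporters 2 were higher and 1 lower with 1 µM lapatinib in resistant cells, 3 higher and 1 lower in parental cells, and 1 higher and 1 lower between the basal lines (medians 0.026, 0.25 and 0.020). ABCA12, the lipid exporter of skin barrier cells, rose by 0.84 in resistant cells (adjusted p = 8.87e-07) and by 0.62 in parental cells (adjusted p = 6.25e-05), and was 0.70 higher in resistant than in parental basal cells (adjusted p = 2.97e-05). ABCA1, the cholesterol exporter, rose by 1.71 in parental cells (adjusted p = 1.64e-10), where 2 of 3 basal arrays were above background. In resistant cells it was not above background on any basal array, and the rise at 1 µM was at least 1.50-fold, the bright group's mean against the background level. For the same reason its basal difference between the lines was at least 1.15-fold lower in resistant cells (adjusted p = 0.0341, lost at up to 0.194). ABCA7 fell by 0.52 in resistant cells (adjusted p = 0.0246, lost at up to 0.166), and ABCA4 rose by 0.45 in parental cells (adjusted p = 0.00783, lost at 0.0611 with median scaling).

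ABC transporters of organelles had 1 higher and 3 lower of 8 tested in resistant cells at 1 µM, 0 higher and 1 lower in parental cells, and 0 higher and 1 lower between the lines (medians -0.077, -0.018 and -0.046). ABCB6, a porphyrin transporter, fell by 0.53 in resistant cells (adjusted p = 8.35e-05) and by 0.50 in parental cells (adjusted p = 0.000132). ABCB9 rose by 0.63 in resistant cells (adjusted p = 0.000117), while its other tested probe gave 0.31. TAP2, a peptide transporter subunit, fell there by 0.46 (adjusted p = 0.0221, lost at up to 0.0994), and its other tested probe gave -0.62. TAP1, its partner subunit, differed by -1.02 between resistant and parental basal cells (adjusted p = 1.11e-08). Of the 4 ABC proteins without a membrane part, 1 was lower and none higher in each of these comparisons (medians -0.22, -0.14 and -0.14). ABCF3 fell by 0.40 in resistant cells (adjusted p = 0.0311, lost at up to 0.26). ABCF2 fell by 0.33 in parental cells (adjusted p = 0.042, lost at up to 0.18) and differed by -0.39 between the basal lines (adjusted p = 0.0235, lost at up to 0.121), where its other tested probe gave 0.0077.

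Among 12 tested transcription regulators known to act on efflux pump genes, 2 were higher and 1 lower at 1 µM in resistant cells, 3 higher and 1 lower in parental cells, and 0 higher and 3 lower between the basal lines (medians 0.059, 0.14 and -0.14). RXRA, the partner of many nuclear receptors, rose by 0.54 in resistant cells (adjusted p = 0.00518) and by 0.47 in parental cells (adjusted p = 0.0117, lost at up to 0.471). FOXO3, a transcription factor held in the cytoplasm by AKT, rose by 0.35 in resistant cells (adjusted p = 0.0139, lost at up to 0.417) and by 0.92 in parental cells (adjusted p = 9.14e-08). PPARG, a lipid-sensing receptor, differed by -1.31 between resistant and parental basal cells (adjusted p = 2.44e-10), FOXO1 by -0.52 (adjusted p = 0.0014) and YBX1 by -0.42 (adjusted p = 0.00873, lost at up to 0.0678). YBX1 also fell by 0.48 in parental cells at 1 µM (adjusted p = 0.00138). NFYA fell by 0.40 in resistant cells, where 1 of 3 arrays at 1 µM was above background (adjusted p = 0.0413, lost at up to 0.171).

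Glutathione supply and conjugation, which makes substrates for the ABCC pumps, had 7 higher and 1 lower of 18 tested genes at 1 µM in resistant cells, 3 higher and 2 lower in parental cells, and 1 higher and 3 lower between the basal lines (medians 0.12, 0.059 and 0.0011). The transferase GSTM3 rose by 1.11 in resistant cells (adjusted p = 4.17e-08) and by 0.88 in parental cells (adjusted p = 1.57e-06). GSTK1 rose by 0.84 in resistant cells (adjusted p = 1.37e-07) and by 0.80 in parental cells (adjusted p = 1.89e-07). GSTA4 rose by 0.77 in resistant cells (adjusted p = 6.07e-05) and was 0.82 higher in resistant than in parental basal cells (adjusted p = 4.91e-05). GSTO2 differed by -0.62 between the basal lines (adjusted p = 0.000502) and GSTM2 by -0.42 (adjusted p = 0.0262, lost at up to 0.105). GCLM, a subunit of the enzyme that starts glutathione synthesis, fell by 0.38 in parental cells (adjusted p = 0.0166, lost at up to 0.0761), while its other tested probe gave 0.099.

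Drug uptake carriers had 0 higher and 4 lower of 10 tested at 1 µM in resistant cells, 0 higher and 3 lower in parental cells, and 2 higher and 1 lower between the basal lines (medians -0.098, -0.25 and 0.0013). The organic anion carrier SLCO4A1 fell by 0.58 in resistant cells (adjusted p = 0.00197) and by 0.55 in parental cells (adjusted p = 0.00226), and was 0.82 higher in resistant than in parental basal cells (adjusted p = 5.64e-05). The nucleoside carrier SLC29A2 fell by 0.50 in resistant cells (adjusted p = 0.00163) and by 0.45 in parental cells (adjusted p = 0.00328), and was 0.67 higher in resistant than in parental basal cells (adjusted p = 0.000116). SLCO3A1 was not above background in resistant cells at 1 µM and fell there at least 1.33-fold (adjusted p = 0.000762). SLCO2A1, a prostaglandin carrier, fell at least 1.06-fold in resistant cells (adjusted p = 0.00478) and by 0.54 in parental cells, where 1 of 3 arrays at 1 µM was above background (adjusted p = 0.00197). SLC22A4 was not above background in resistant basal cells and was at least 1.23-fold lower there than in parental cells (adjusted p = 0.00115).

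Scaffold and membrane-cytoskeleton linkers that hold pumps at the cell surface had 0 higher and 1 lower of 5 tested at 1 µM in resistant cells, 1 higher and 0 lower in parental cells, and 2 higher and 0 lower between the basal lines (medians -0.11, 0.12 and 0.35). The linker EZR was 0.64 higher in resistant than in parental basal cells (adjusted p = 0.000978, lost at 0.177 with median scaling), and MSN fell by 0.60 at 1 µM in resistant cells (adjusted p = 0.00455). The scaffold NHERF1 rose by 0.28 in parental cells at 1 µM (adjusted p = 0.0248), which turned to -0.10 with median scaling (adjusted p = 0.595). It was 0.39 higher in resistant than in parental basal cells (adjusted p = 0.00426, lost at 0.918 with median scaling). Of 6 tested genes of glucuronidation and sulphation none was called at 1 µM in either line and 2 were lower between the basal lines (medians 0.14, -0.13 and -0.29). These were PAPSS2, which makes the sulphate donor, at -0.68 with 1 of 3 resistant arrays above background (adjusted p = 0.00175), and UGT1A6, at least 1.01-fold lower in resistant cells (adjusted p = 0.0301, lost at up to 0.11). The UGT1A genes share exons, so that probe may not read UGT1A6 alone. None of the 4 listed lapatinib-oxidising cytochrome P450 genes on the array passed the filter on dim probes.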

How the data were processed

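RNA of 18 SKBR3 samples (6 groups of 3) was measured on Illumina Human-6 bead arrays. Per the labels' protocols, total RNA was amplified to biotin-labelled cRNA. Per the submitters' processing notes the signals come from BeadStudio (version not stated). The authors deposited 1 table of raw probe intensity (linear, background not subtracted), which lists neither detection p-values nor control probes. Another deposited table gives intensity as normalized by the authors. No sample column was left unused (0). Of 48803 probes 28098 carry 1 gene symbol, 13 several and 20692 none. Symbols were updated by gene identifier through RefSeq (GRCh38.p14) for 28059 probes, all 14 member probes among them.

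With R 4.3.3 and limma 3.58.1, intensities were background-corrected (normexp, offset 50), quantile-normalized and put on a log2 scale. Background on an array was the mode of its log2 signals, and the threshold was the level that a share of 0.05 of a normal background with the spread below the mode would exceed (86.1 to 117). Probes above it on at least 3 arrays were tested, 22706 in all. The model gave each of the 6 groups its own mean over the 18 arrays, with no replicate block (lmFit, then eBayes with trend). The p-values of 11 contrasts, all two-sided, were adjusted by Benjamini-Hochberg over probes, and 0.05 was the threshold. The test was run first on simulated data. Where a group was above background on 0 arrays, a fold is a bound against the background level. The number of arrays limits the precision.

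The members and lists were chosen with earlier results of these data known. All member probes are named, and from each list up to 3 genes with the biggest change past the threshold at 1 µM against basal and between the basal lines. Neighbouring genes were named after their values were seen. Alternatives were no background correction, median scaling, the authors' normalized values, no filter, a filter at 9 arrays, 1 probe a gene, only the groups compared, no trend, a replicate block and each array left out. Same-numbered arrays of different groups did not deviate together, since 2 of 45 such pairs had r over 0.1 and 4 of 90 pairs with different numbers did, so numbers were not taken as pairs.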

Additional observations from a re-analysis of the deposited data

How the results depend on the processing

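Of 37 calls on member probes 24 held under every alternative and 13 were lost under at least 1; no member call changed direction. The lost calls are named beside their values above. Counts of called member probes left the range of 1.5 times under these settings, and the cause was not tested unless named. With median scaling the count was 3 for resistant 0.1 µM against basal (reported 5), 0 for resistant 1 µM against 0.1 µM (1), 3 for resistant against parental basal (5) and 3 for resistant against parental at 0.1 µM (5). Median scaling also turned the split of the 4 calls in parental 0.1 µM against basal to 0 higher and 4 lower (reported 2 and 2) and that between the basal lines to 0 higher and 3 lower (2 and 3). It moved the median of all probes by -0.13 in the comparison of parental 0.1 µM with basal and by -0.14 between the basal lines. Its calls over all probes for parental 0.1 µM against basal were 311 higher and 4621 lower, beside 893 and 913 in the main processing. Between the basal lines they were 478 higher and 5225 lower, beside 1165 and 1275. For parental 1 µM against basal they were 1045 higher and 5059 lower, beside 2326 and 2393. For resistant 0.1 µM against basal they were 179 higher and 974 lower, beside 561 and 440. For resistant 1 µM against 0.1 µM they were 171 higher and 218 lower, beside 292 and 474. Between the lines at 0.1 µM they were 648 higher and 2712 lower, beside 1620 and 1640. With only the groups compared, so fewer arrays, the counts were 1 for resistant 0.1 µM against basal (reported 5), 1 for parental 1 µM against 0.1 µM (0), 0 for resistant 1 µM against 0.1 µM (1) and 3 for resistant against parental at 0.1 µM (5). With no filter the last was also 3. With 1 probe a gene, so fewer member probes, the counts were 2 for parental 0.1 µM against basal (4), 3 for parental 1 µM (6) and 4 for resistant 1 µM (7). Calls over all probes with only the groups compared, no filter or 1 probe a gene are not given here.

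Without 1 array at a time the counts ranged from 3 to 5 for parental 0.1 µM against basal, 5 to 6 for parental 1 µM, 0 to 2 for parental 1 µM against 0.1 µM, 4 to 6 for resistant 0.1 µM, 7 to 7 for resistant 1 µM, and 0 to 2 for resistant 1 µM against 0.1 µM. Between the lines they ranged from 5 to 5 under basal conditions, 4 to 7 at 0.1 µM and 4 to 5 at 1 µM, and the responses differed for 0 to 0 probes at either dose. Calls over all probes without 1 array are not given here, so these ranges have no share beside them. The single call between the resistant doses was lost (0) without resistant 0.1 µM replicate 1 or 3 or resistant 1 µM replicate 1 or 3. Without resistant 0.1 µM replicate 3, parental 1 µM against 0.1 µM had 2 calls. Of the genes outside the members, NHERF1 in parental 1 µM against basal reversed to -0.10 with median scaling (adjusted p = 0.595). With the replicate number as a block, which the labels do not state to mark a pairing, the counts were 5 for parental 1 µM (reported 6), 4 between the lines at 0.1 µM (reported 5) and the same as reported in the other 9 comparisons. Over all probes the block gave 4587 calls for parental 1 µM (reported 4719) and 3133 between the lines at 0.1 µM (reported 3260). Slide as a block was not run, because the headers give no slide. Signal near background limits ABCB1, ABCG2, ABCC10 and the dimmer ABCC4, ABCC5 and ABCC11 probes. It also limits ABCC3 and both ABCC4 probes in resistant cells at 1 µM.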
